A study of Homo sapiens with 8 samples.

Results

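The NF-κB subunits and target genes described here are 10 genes of the 58302 in the count matrix: the subunits NFKB1, NFKB2, RELA and RELB, the inhibitor NFKBIA, the ubiquitin editor TNFAIP3, and the targets BIRC3, CXCL1, CXCL8 and ICAM1. They were chosen by symbol, each matched to its Ensembl gene ID through GENCODE 44. The rule that picks them uses their names and no measured value, but it was written with earlier results of these data known. The RNA came from A549, an established human lung adenocarcinoma cell line, transiently transfected with 1 siRNA against APEX1, the gene of the APE1 protein (group siAPEX1), or with 1 scramble control siRNA (group siCTRL). Each group had 4 libraries, both groups were collected at the same single time after transfection, and the libraries were made from total RNA with a small-RNA kit modified to catch primary miRNA transcripts as well. The study silenced APE1 in these cells, and APE1 is known as a redox activator of NF-κB, so the comparison asks whether NF-κB genes had other RNA levels in the siAPEX1 group.

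NF-κB is a family of transcription factors that act as dimers. The precursors made from NFKB1 and NFKB2 are processed to p50 and p52, which carry no activation domain, while RELA and RELB do. In resting cells the dimers are held by inhibitors such as IκBα, the product of NFKBIA. Signals from cytokine and other receptors lead the IκB kinases to mark IκBα for destruction, after which dimers enter the nucleus and bind κB motifs. NFKBIA and TNFAIP3 are themselves targets and damp the response. In lung epithelium, targets include chemokines that attract neutrophils, survival genes and adhesion molecules. APE1 is a base excision repair endonuclease that also keeps cysteines of several transcription factors, NF-κB among them, in the reduced state in which they bind DNA.

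Among the promoter stretches below, those of CXCL1, CXCL2 and CXCL3 are nearly the same. Of these genes CXCL3 alone passed the test between the groups, and differences from one of them to another were not tested. The stretches are shown because they carry the motif that joins most of these genes. They were read from RefSeq promoter windows, 250 bases before to 50 bases after each annotated start (GRCh38.p14), and each is written 5′ to 3′ on the strand of its gene. Capitals mark the match to the κB consensus or, for CXCL8, to the letters GGAATTTCC. Both were searched on both strands, and a match to one can overlap a match to the other.
BIRC3, chr11:102317275-102317304, plus strand: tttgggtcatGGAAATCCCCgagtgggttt
BIRC3, chr11:102317339-102317368, plus strand: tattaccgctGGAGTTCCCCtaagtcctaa
CXCL8, chr4:73740468-73740497, plus strand: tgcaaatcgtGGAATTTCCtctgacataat
CXCL1, chr4:73869304-73869333, plus strand: ctggaactccGGGAATTTCCctggcccggg
CXCL2, chr4:74099254-74099283, minus strand: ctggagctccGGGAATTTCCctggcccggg
CXCL3, chr4:74038749-74038778, minus strand: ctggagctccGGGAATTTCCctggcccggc
NFKBIA, chr14:35404811-35404840, minus strand: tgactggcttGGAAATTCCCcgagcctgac
NFKB1, chr4:102501300-102501329, plus strand: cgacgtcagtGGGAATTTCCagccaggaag

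The matches in BIRC3 and NFKBIA lie on the strand opposite to the gene. The CXCL3 stretch overlaps an annotated exon of CXCL3, the NFKB1 stretch overlaps an exon of ENSG00000260651, and the other stretches shown overlap no exon. The RefSeq table held 9 of the 10 members, in 13 windows, and RELB was not among them. The κB consensus was found for 6 of these genes (NFKB1, NFKB2, NFKBIA, TNFAIP3, BIRC3 and CXCL1), and GGAATTTCC for 5 (NFKB1, NFKBIA, CXCL1, CXCL8 and ICAM1), while neither was found in the windows of RELA. Counted in windows, 7 of the 13 (53.8%) held the κB consensus and 5 (38.5%) held GGAATTTCC, against 11.3% and 0.461% of all 35116 windows. The members were chosen by name as NF-κB genes, so this difference is not a result of these data. A match is a description of letters and not a measurement of binding.

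APEX1 was read first in every library, since it is the gene named in the labels. Its counts in the siCTRL libraries were 51, 61, 64 and 47, and in the libraries labelled siAPEX1 they were 21150, 19470, 27916 and 20767. The gene targeted by the siRNA therefore had more counts, not fewer, in all 4 libraries labelled siAPEX1 (log2 fold change 9.29 ± 0.127 SE, adjusted p = 8.97e-42, edgeR quasi-likelihood test with Benjamini-Hochberg adjustment). Read as mRNA, this goes against the label. The libraries came from a small-RNA kit, however, and the siRNA is directed at APEX1 sequence. How many of these counts came from the siRNA itself was not tested, so they are not taken as a measure of APEX1 mRNA. The labels were checked on APEX1 alone, and every direction below is a direction between libraries as labelled.

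Libraries held 1348386 to 1949886 counts, of which the 10 members together took 263 to 416, so most members rested on few reads per library. Protein-coding genes other than APEX1 took 20.5% to 21.6% of the counts in siCTRL libraries and 15.5% to 16.5% in libraries labelled siAPEX1, and this share moved with every result below. Levels are therefore given as CPM (counts scaled to a common library total), with library sizes adjusted by the trimmed mean of M values (TMM), and the part of the lower protein-coding share in each result was not tested. All 11 A549 and epithelial markers examined had counts, and on the CPM scale they summed to 1376 to 1530 per siCTRL library and 1131 to 1197 per library labelled siAPEX1. Of the 10 that were tested, 6 fell, the keratins KRT8, KRT18 and KRT19 among them, and 2 rose, CDH1 (log2 fold change 0.92) and AKR1B10 (0.83). Over all genes tested, 15.8% fell and 15.9% rose. The 6 leukocyte markers summed to 8 to 13 and 2 to 4 counts in those groups, with CD3E at 0, and the 7 fibroblast or endothelial markers to 4 to 14 and 1 to 4 counts, with PECAM1 and CDH5 at 0. In RNA from a whole culture, fewer expressing cells and less RNA per cell cannot be told apart. The study calls its replicates biological, while the labels do not say that they were separate cultures, and p-values measure the spread between these libraries.

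Of the 10 members, 8 had enough counts to be tested. BIRC3, an inhibitor of apoptosis and ubiquitin ligase, and CXCL8, the neutrophil chemokine interleukin-8, were higher in the libraries labelled siAPEX1. RELB, the activating subunit of the non-canonical pathway, was lower, and the other 5 did not pass the test. BIRC3 alone also passed a log2 fold change of 1. Over all 5368 genes tested, 31.7% passed the same test, 15.9% as higher and 15.8% as lower, and 9.28% passed both thresholds (5.68% as lower), so 3 of 8 is close to the share of genes called at large. The median log2 fold change was -0.28 over the 8 tested members and -0.0035 over all genes tested.

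**Figure D1:**
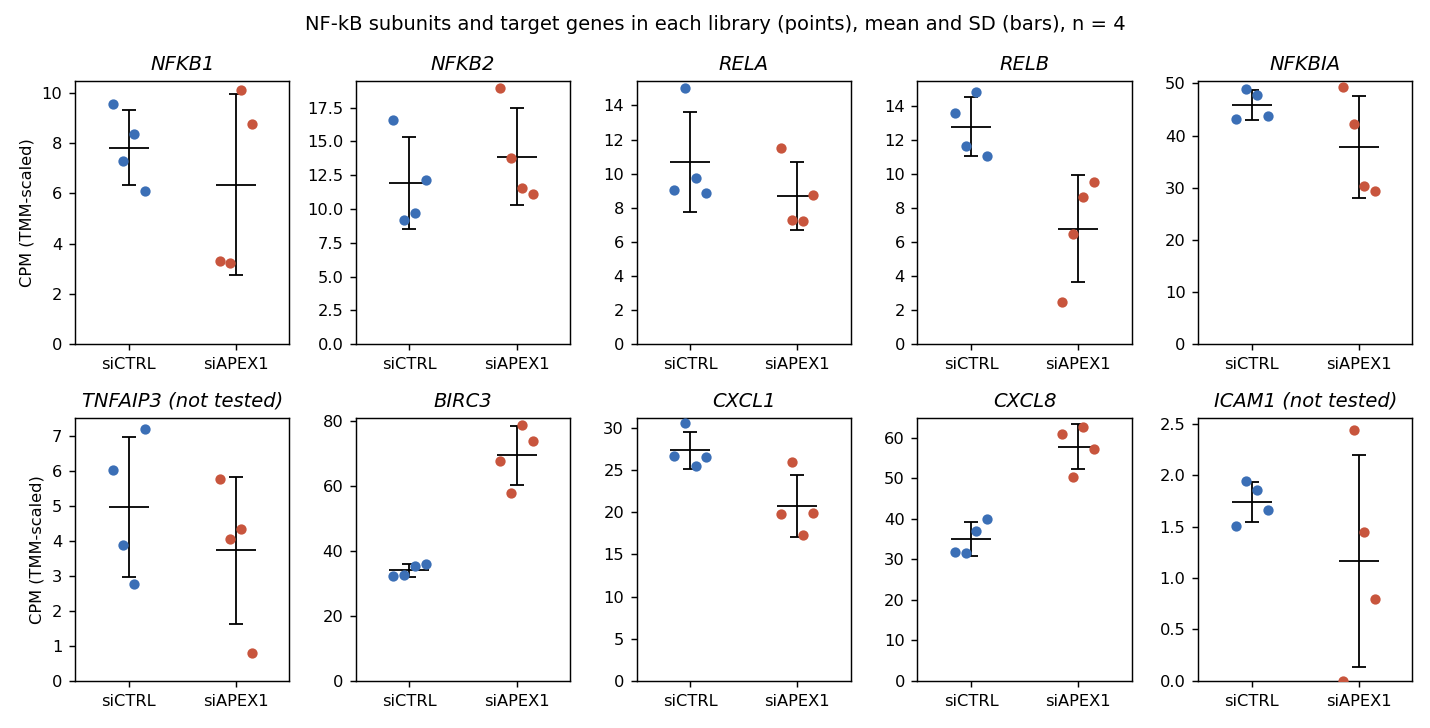
TMM-scaled CPM (vertical axis, from 0) of each member in the 4 siCTRL and 4 siAPEX1 libraries, with points for libraries and bars for the mean and SD. BIRC3 and CXCL8 lay higher in every library labelled siAPEX1, RELB lay lower in every one, and the groups overlapped for the other 7 members.

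Among the subunits, RELB (ENSG00000104856, chr19:45001461-45038192, plus strand) gave 13.6, 11.6, 14.8 and 11.1 CPM in the siCTRL libraries and 2.47, 6.49, 8.65 and 9.53 CPM in those labelled siAPEX1. All 4 values of the second group were below all 4 of the first, as they were, in either direction, for 28.9% of the genes tested, and replicate 1 was far below the others, with 3 counts. The mean fell from 12.8 ± 1.74 to 6.79 ± 3.15 CPM (SD, n = 4), a log2 fold change of -0.89 ± 0.277 (SE; 95% interval -1.45 to -0.34; adjusted p = 0.0109, edgeR). That call was lost with DESeq2, where the adjusted p was 0.0583, and without siAPEX1 replicate 1, where the log2 fold change was -0.61 and the adjusted p 0.0977.

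RELA (ENSG00000173039, chr11:65653599-65663090, minus strand), which encodes the p65 subunit of the canonical dimer, was at 9.05, 15.01, 9.73 and 8.85 CPM in siCTRL and at 11.5, 7.30, 7.21 and 8.74 CPM in the libraries labelled siAPEX1. The groups overlapped, and siCTRL replicate 2 stood above its group. The log2 fold change was -0.31 ± 0.266 (SE, adjusted p = 0.410, edgeR), with a 95% interval of -0.85 to 0.23. Without siCTRL replicate 2 it was -0.10 (adjusted p = 0.847, edgeR). On the opposite strand RELA overlaps the antisense gene RELA-DT, whose reads were not counted apart here.

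NFKB1 (ENSG00000109320, chr4:102501330-102617302, plus strand) had 19, 15, 18 and 11 counts in siCTRL and 4, 4, 14 and 11 in the libraries labelled siAPEX1. Replicates 1 and 2 of the second group were below all siCTRL libraries after scaling, at 3.29 and 3.25 CPM, while replicates 3 and 4, at 10.1 and 8.74 CPM, lay among or above them. Its log2 fold change of -0.28 ± 0.320 (SE; 95% interval -0.92 to 0.37) did not pass the test (adjusted p = 0.558, edgeR). NFKB2 (ENSG00000077150, chr10:102394110-102402524, plus strand) was at 16.6, 9.20, 9.73 and 12.2 CPM in siCTRL and 18.9, 13.8, 11.5 and 11.1 CPM in those labelled siAPEX1. These groups overlapped too, with a log2 fold change of 0.21 ± 0.239 (SE; 95% interval -0.27 to 0.70; adjusted p = 0.543, edgeR) that turned to -0.13 when libraries were scaled by their totals alone. For both precursors the interval held changes in either direction.

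NFKBIA (ENSG00000100906, chr14:35401079-35404749, minus strand), the IκBα gene, gave 43.2, 48.9, 47.7 and 43.7 CPM in siCTRL and 49.4, 42.2, 30.3 and 29.4 CPM in the libraries labelled siAPEX1. The second group was split, with replicate 1 above all siCTRL libraries and replicates 3 and 4 well below them. The log2 fold change was -0.29 ± 0.142 (SE), with an unadjusted p of 0.0469 and an adjusted p of 0.116 (edgeR). The adjusted p was 0.0365 without siAPEX1 replicate 1, at a log2 fold change of -0.42, and 0.0357 when the test was limited to genes that reached 10 counts in all 8 libraries. Without siAPEX1 replicate 3 or 4 the log2 fold change was -0.17 in each case, with adjusted p-values of 0.473 and 0.454.

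TNFAIP3 (ENSG00000118503, chr6:137867214-137883314, plus strand), which encodes the ubiquitin editor A20, had too few counts for the fit. It had 12, 8, 6 and 13 counts in siCTRL and 7, 5, 6 and 1 in the libraries labelled siAPEX1, or 4.97 ± 2.01 and 3.74 ± 2.10 CPM (SD, n = 4). The groups overlapped, and a two-sided exact permutation test of the CPM gave p = 0.457. ICAM1 (ENSG00000090339, chr19:10271093-10286615, plus strand), the adhesion molecule that binds leukocyte integrins, was also too low to be tested. Its counts were 3, 4, 4 and 3 in siCTRL and 0, 3, 2 and 1 in those labelled siAPEX1, at or near the floor of 3 counts (1.39 to 2.47 CPM), so no fold is given. The exact permutation p was 0.343. A fit that kept all genes with a count gave TNFAIP3 a log2 fold change of -0.47 ± 0.412 (SE, adjusted p = 0.540, edgeR). For both genes this depth could show only large changes.

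BIRC3 (ENSG00000023445, chr11:102317484-102339403, plus strand), which encodes cIAP2, was at 32.2, 32.4, 35.2 and 35.97 CPM in siCTRL and at 67.5, 57.6, 78.6 and 73.9 CPM in the libraries labelled siAPEX1. The lowest value of the second group was far above the highest of the first. Mean levels were 34.0 ± 1.92 and 69.4 ± 9.06 CPM (SD, n = 4), a log2 fold change of 1.04 ± 0.125 (SE; 95% interval 0.78 to 1.29; adjusted p = 1.04e-08, edgeR), or 2.05-fold. Of all genes tested, 3.6% passed both thresholds as higher, and BIRC3 stood at percentile 96.8 of the log2 fold changes. In raw counts the groups were 64, 67, 76 and 65 against 82, 71, 109 and 93. There the groups overlapped, with 71 in siAPEX1 replicate 2 and 76 in siCTRL replicate 3, and the libraries labelled siAPEX1 had the smaller totals. BIRC3 overlaps ENSG00000288528 on the opposite strand, and whether the counting used strand was not stated.

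CXCL8 (ENSG00000169429, chr4:73740519-73743716, plus strand) gave 31.7, 31.5, 37.1 and 39.8 CPM in siCTRL and 60.9, 50.3, 62.7 and 57.2 CPM in the libraries labelled siAPEX1. Again every library of the second group exceeded every one of the first. The mean was 35.0 ± 4.13 against 57.8 ± 5.49 CPM (SD, n = 4), a log2 fold change of 0.73 ± 0.128 (SE; 95% interval 0.47 to 0.99; adjusted p = 1.68e-05, edgeR), or 1.66-fold. Its raw counts, 63, 65, 80 and 72 against 74, 62, 87 and 72, overlapped, so this rise is one relative to the scaled library size.

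CXCL1 (ENSG00000163739, chr4:73869393-73871308, plus strand), another chemokine for neutrophils, went the other way without passing the test. It was at 26.7, 30.5, 25.5 and 26.6 CPM in siCTRL and at 19.8, 26.0, 17.3 and 19.9 CPM in the libraries labelled siAPEX1. Replicate 2 of the second group lay within the siCTRL range and the other 3 lay below it. The log2 fold change was -0.40 ± 0.169 (SE; 95% interval -0.75 to -0.06), with an unadjusted p of 0.0218 and an adjusted p of 0.0643 (edgeR). Without siAPEX1 replicate 2 the log2 fold change was -0.50 and the adjusted p 0.0395, and among genes that reached 10 counts in all libraries they were -0.49 and 0.0208. Without siAPEX1 replicate 3 they were -0.29 and 0.266, and without siCTRL replicate 2 -0.34 and 0.168.

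**Figure D2:**
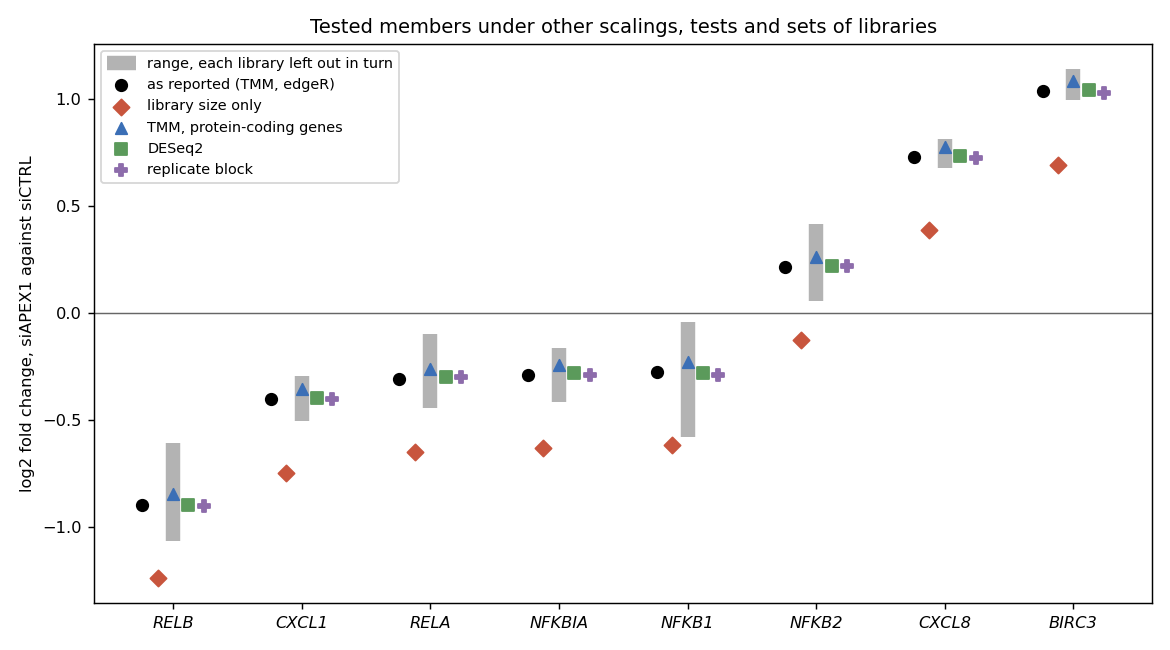
Log2 fold change, siAPEX1 against siCTRL (vertical axis), of the 8 tested members as reported (circles) and under other scalings, another test and a replicate block, with grey bars for the range when each library was left out in turn. Scaling by library totals alone lowered every member and took NFKB2 below 0, while BIRC3 and CXCL8 stayed above 0 and RELB below it in each setting drawn.

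Scaling decides part of these values. With totals alone in place of TMM, the log2 fold changes of all genes shifted by a median of -0.34, and the split over all genes went from 856 higher and 847 lower to 340 higher and 1945 lower. Under that scaling RELA (-0.65, adjusted p = 0.0428), NFKBIA (-0.63, adjusted p = 3.38e-04) and CXCL1 (-0.74, adjusted p = 3.62e-04, edgeR) passed as lower beside RELB, while BIRC3 and CXCL8 still passed as higher. Over all settings tried, BIRC3 passed in 17 of 17, with log2 fold changes of 0.69 to 1.14, and CXCL8 in 17 of 17, with 0.39 to 0.81. RELB passed in 14 of the 16 settings that tested it.

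Ratios of a pair of members within a library do not depend on the scaling, and they were added after the results above were seen. Of the 28 pairs of tested members, 10 had ratios that did not overlap between the groups (35.7%), against 27.9% of all pairs of tested genes, and each of the 10 included BIRC3 or CXCL8. No pair passed a two-sided exact permutation test after adjustment over the 28 pairs (smallest adjusted p = 0.08), where 4 libraries against 4 cannot give an unadjusted p below 0.0286. The log2 ratio of CXCL8 to CXCL1 was 0.25, 0.04, 0.53 and 0.58 in siCTRL and 1.58, 0.93, 1.82 and 1.49 in the libraries labelled siAPEX1. CXCL8 had more counts than CXCL1 in all 8 libraries, and by more in each library labelled siAPEX1 than in any siCTRL library, a 2.15-fold difference between the mean ratios. The log2 ratio of BIRC3 to NFKBIA was -0.42, -0.58, -0.43 and -0.28 in siCTRL, so that NFKBIA had the more counts, and 0.44, 0.44, 1.36 and 1.31 in those labelled siAPEX1, where BIRC3 did. BIRC3 and CXCL8 both rose, and their log2 ratio went from -0.04 ± 0.0875 to 0.26 ± 0.104 (SD, n = 4). This pair was among the 10 that did not overlap, with the smallest difference of them.

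**Figure D3:**
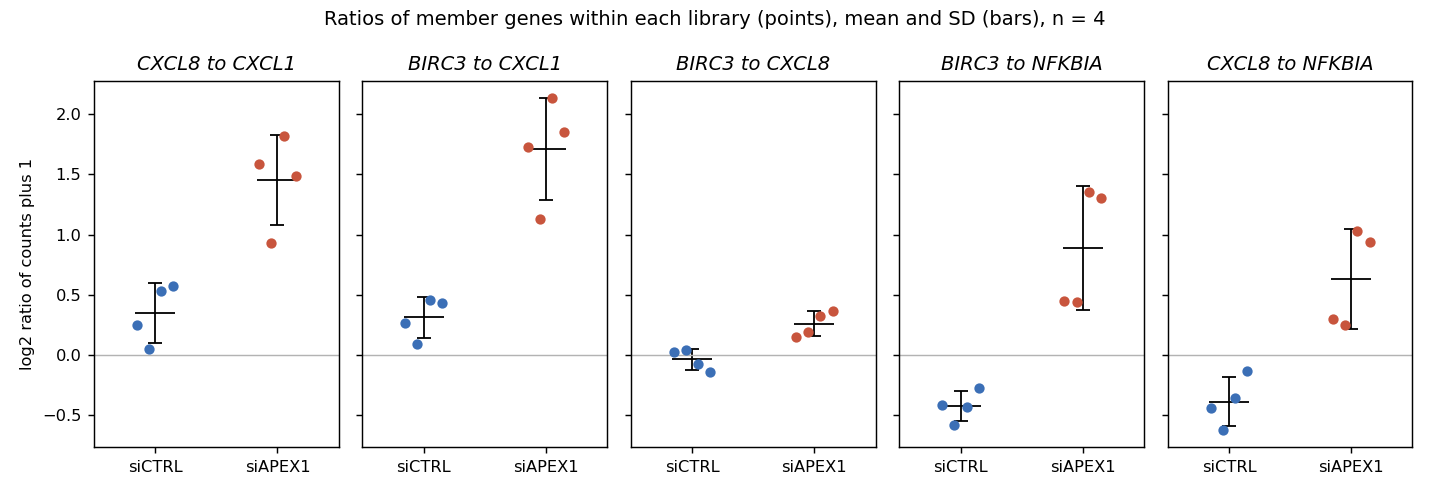
Log2 ratio of counts plus 1 (vertical axis) for 5 pairs of members in each library, with points for libraries and bars for the mean and SD. The libraries labelled siAPEX1 lay above the siCTRL libraries in all 5 pairs, by the least for BIRC3 to CXCL8.

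Per kilobase of exon, with all annotated exons of a gene merged, the chemokines and the inhibitor led. The merged length was 15679 bases for NFKB1 and 1362 for CXCL1, and it can exceed the length of the transcripts present. Whether counts from this modified small-RNA kit scale with exon length was not tested. The order between genes is therefore approximate and depends on this divisor. In siCTRL the order was CXCL1 (20.05 ± 1.62 CPM per kb), CXCL8 (13.5 ± 1.60), NFKBIA (13.5 ± 0.838), BIRC3 (4.54 ± 0.257), RELB (4.26 ± 0.581), NFKB2 (2.14 ± 0.604), RELA (1.95 ± 0.536), TNFAIP3 (0.772 ± 0.311), ICAM1 (0.505 ± 0.0560) and NFKB1 (0.498 ± 0.0945), each as mean and SD of 4 libraries. Neighbours whose ranges overlapped were CXCL8 and NFKBIA, BIRC3 and RELB, NFKB2 and RELA, TNFAIP3 and ICAM1, and ICAM1 and NFKB1. In the libraries labelled siAPEX1, CXCL8 came first at 22.3 ± 2.12 CPM per kb, clear of CXCL1 at 15.2 ± 2.71. NFKBIA (11.1 ± 2.85) overlapped with both CXCL1 and BIRC3 (9.27 ± 1.21), and BIRC3 was clear of NFKB2 (2.48 ± 0.643). RELB (2.26 ± 1.05) and RELA (1.59 ± 0.369) overlapped with each other, and TNFAIP3 (0.580 ± 0.326), NFKB1 (0.405 ± 0.229) and ICAM1 (0.339 ± 0.299) were lowest and not clearly ordered.

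**Figure D4:**
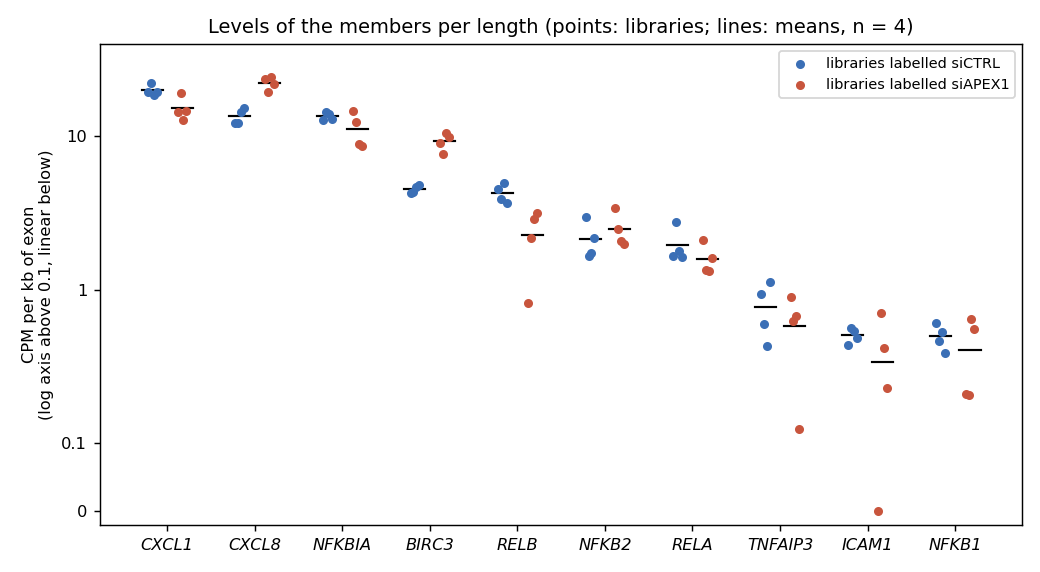
CPM per kb of exon (vertical axis, logarithmic above 0.1 and linear below) for the 10 members in each library, ordered by the siCTRL mean, with lines for means. CXCL1 was highest in siCTRL and CXCL8 in the libraries labelled siAPEX1, while TNFAIP3, ICAM1 and NFKB1 had the lowest means in both.

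The wider NF-κB list held 66 matched genes, members included, of which 32 were tested. Of these, 4 rose, 9 fell and 19 did not pass, beside 15.9% higher and 15.8% lower over all genes, and the median log2 fold change was -0.28. Without the members, 24 were tested, and 2 rose, 8 fell and 14 did not pass.

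**Figure D5:**
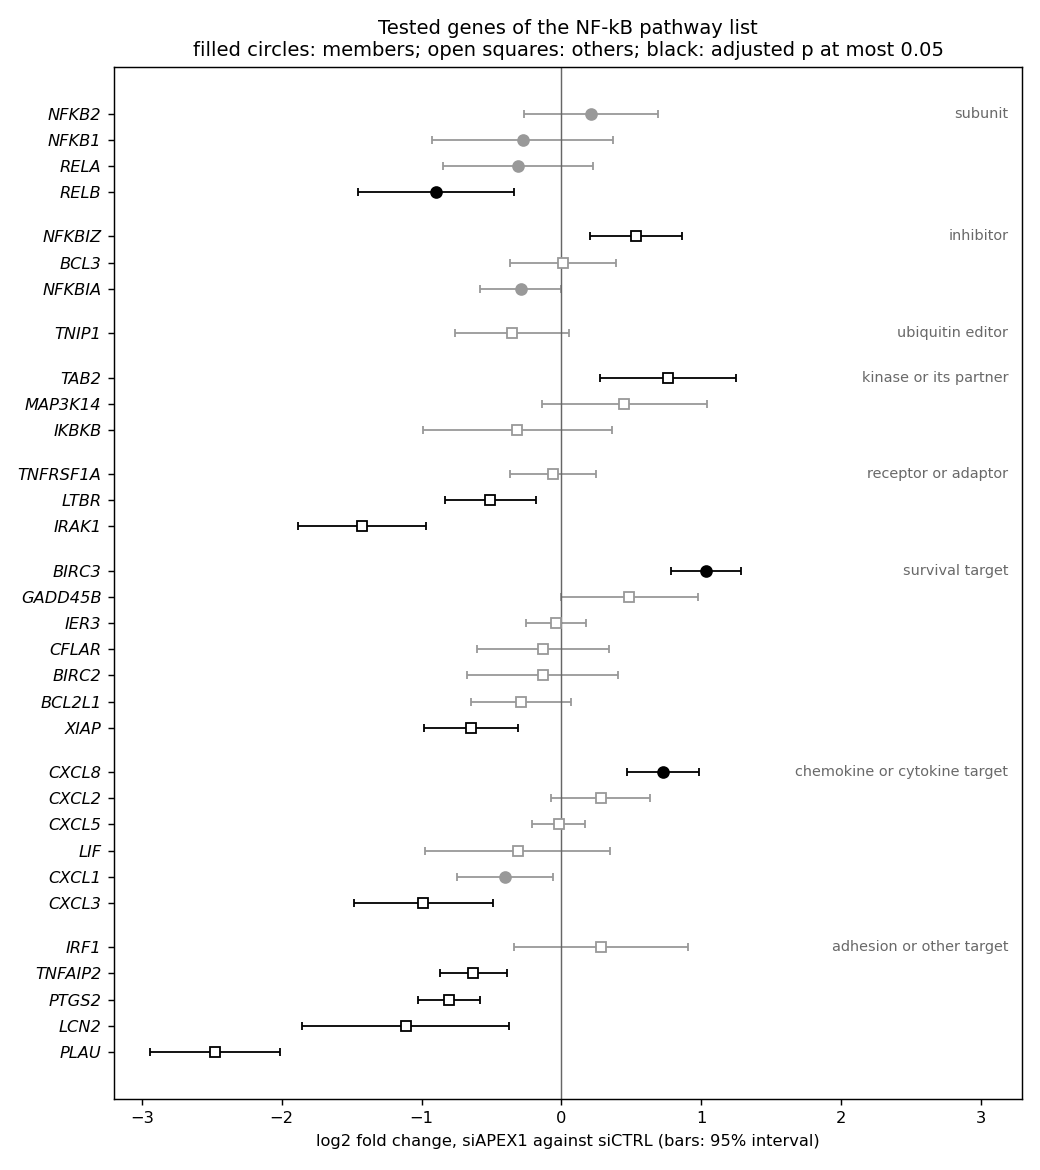
Log2 fold change, siAPEX1 against siCTRL (horizontal axis), with 95% intervals, of the 32 tested genes of the NF-κB list by role. Filled circles are members and open squares the others, in black where the adjusted p was at most 0.05, with PLAU lowest and BIRC3 highest.

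Upstream of the subunits, 2 of the 3 tested receptor and adaptor genes fell, beside 15.8% lower over all genes tested. IRAK1, a kinase next to interleukin-1 and Toll-like receptors, went from 20.8 ± 2.33 to 7.64 ± 1.42 CPM (log2 fold change -1.43 ± 0.228 SE, adjusted p = 3.13e-06, edgeR), with no overlap between groups. LTBR, the lymphotoxin β receptor of the non-canonical pathway, fell by 0.51 on the log2 scale (adjusted p = 0.0139, edgeR), with overlapping groups. TNFRSF1A, the main TNF receptor, did not pass, at -0.06 on the log2 scale (adjusted p = 0.809, edgeR). Of the 3 tested genes of the kinases and their partners, TAB2, an adaptor of the TAK1 kinase, rose from 7.58 ± 0.825 to 13.0 ± 1.14 CPM (0.76 ± 0.242, adjusted p = 0.0132, edgeR), while IKBKB, the IKKβ gene, was at -0.31 (adjusted p = 0.521). CHUK and IKBKG, like the inhibitors NFKBIB and NFKBIE, had too few counts to be tested, and their groups overlapped in CPM.

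Among the genes listed under the role of inhibitor, NFKBIZ, which encodes the nuclear protein IκBζ, rose from 22.3 ± 3.98 to 32.1 ± 3.77 CPM (0.53 ± 0.162, adjusted p = 0.00967, edgeR). The role is a label of the list for IκB proteins, and whether IκBζ inhibits NF-κB in these cells was not tested. BCL3, another nuclear IκB protein, was at 0.01 (adjusted p = 0.970, edgeR). The rises of NFKBIZ and TAB2 did not pass with DESeq2 (adjusted p = 0.0564 and 0.0744) or with totals alone as scaling (0.360 and 0.170), nor when all genes with a count were kept (0.0832 and 0.106).

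The paralogs of members did not share one direction. BIRC2, which lies beside BIRC3 on chromosome 11 and encodes cIAP1, was at 9.49 ± 2.15 CPM in siCTRL and 8.61 ± 1.72 CPM in the libraries labelled siAPEX1 (log2 fold change -0.13 ± 0.268 SE, adjusted p = 0.752, edgeR). XIAP, the related X-linked inhibitor of apoptosis, fell from 31.8 ± 4.29 to 20.2 ± 1.62 CPM (-0.65 ± 0.165, adjusted p = 0.00216, edgeR). So of 3 genes of this family, BIRC3 rose, XIAP fell and BIRC2 did not pass.

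The chemokines CXCL1, CXCL2, CXCL3, CXCL5 and CXCL8 lie together on chromosome 4. CXCL3 gave 14.6, 13.1, 13.9 and 16.6 CPM in siCTRL and 7.41, 8.12, 6.49 and 7.15 CPM in the libraries labelled siAPEX1. The groups did not overlap, with a log2 fold change of -0.99 ± 0.245 (SE, adjusted p = 0.00162, edgeR). CXCL2 went from 19.8 ± 2.51 to 24.0 ± 3.61 CPM without passing the test (0.28 ± 0.175, adjusted p = 0.229, edgeR), and was at -0.06 with totals alone as scaling. CXCL5, at 271.5 ± 28.9 and 267.9 ± 11.1 CPM, had the highest CPM of these 5 and differed by -0.02 on the log2 scale (95% interval -0.21 to 0.17, adjusted p = 0.904, edgeR). CXCL8 rose and CXCL3 fell, then, while CXCL1, CXCL2 and CXCL5 did not pass. The stretches of CXCL1, CXCL2 and CXCL3 printed above have the same 10 capital letters. So do the NFKB1 stretch and a CXCL5 stretch that is not printed. CXCL1, CXCL2 and CXCL3 are near-identical paralogs, so reads that match more than one of them may be lost, and their counts are uncertain to that extent.

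Of the 5 tested adhesion and other targets, 4 fell, beside 15.8% lower over all genes tested. PLAU, the urokinase protease, fell from 31.0 ± 2.72 to 5.43 ± 1.96 CPM (-2.48 ± 0.231, adjusted p = 1.42e-11, edgeR), and PTGS2, the inducible cyclooxygenase, from 127 ± 7.19 to 73.0 ± 11.7 CPM (-0.80 ± 0.110, adjusted p = 1.63e-07). TNFAIP2, a cytokine-induced gene, fell from 94.9 ± 11.2 to 61.2 ± 8.17 CPM (-0.63 ± 0.118, adjusted p = 4.35e-05, edgeR). LCN2, the iron-carrier binding protein lipocalin-2, went from 7.69 ± 2.66 to 3.49 ± 1.46 CPM (-1.11 ± 0.367, adjusted p = 0.0174, edgeR), a call lost with DESeq2 (adjusted p = 0.0818) and without siCTRL replicate 2 (0.120), siAPEX1 replicate 2 (0.0928) or siAPEX1 replicate 4 (0.0600). The LTBR call was also lost with DESeq2 (0.0767) and without siCTRL replicate 2 (0.0505), siAPEX1 replicate 1 (0.115) or siAPEX1 replicate 4 (0.0619).

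The other 34 matched genes had too few counts, 32 of them non-members with at most 28 counts in any library. In CPM, 30 of the 34 overlapped between the groups, 2 lay above in all libraries labelled siAPEX1 and 2 below. Of the genes tested, 28.9% did not overlap, and no such share was computed for genes with too few counts. REL, which encodes the subunit c-Rel, was above, with 5, 8, 8 and 4 counts in siCTRL and 10, 7, 15 and 7 in those labelled siAPEX1, or 3.08 ± 0.836 and 7.57 ± 2.49 CPM (SD, n = 4). Its raw counts overlapped, and the exact permutation p of its CPM, 0.0286, is the smallest that the design can give and was not adjusted over genes. The other three were named after their values were seen. TAB1, a partner of the TAK1 kinase, was above (1.71 ± 0.760 against 3.51 ± 0.545 CPM). Its raw counts, 2, 5, 5 and 2 against 4, 4, 6 and 4, overlapped and lay near the floor of 3 counts. MYD88, the adaptor of Toll-like and interleukin-1 receptors, had 7, 4, 9 and 9 counts in siCTRL and 1 in each library labelled siAPEX1. TRADD, the adaptor of TNFRSF1A, was below as well (4.46 ± 0.796 against 1.91 ± 1.36 CPM), with 9, 8, 12 and 7 counts against 1, 3, 5 and 1. In the libraries labelled siAPEX1, both genes were at or near the floor of 3 counts. CXCL10, CCL5, IL1A, TNF and SELE were at 0 in all 8 libraries, so neither the ligand TNF nor these inducible targets could be compared at this depth.

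The tested genes whose log2 CPM followed that of BIRC3 most closely over the 8 libraries were SNORA37 (Pearson r = 0.992), RNVU1-26 (0.987) and HMX3 (0.986). These are a small nucleolar RNA, a spliceosomal RNA and a protein-coding gene, and both groups enter each correlation.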

How the data were processed

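RNA from 8 A549 samples (4 siCTRL, 4 siAPEX1) was sequenced as 100-base single reads by the authors, who trimmed them, aligned them with STAR 2.5.3a to GRCh38 and deposited raw counts per Ensembl gene. The strand setting and the annotation release were not given in the sources used here. Besides the overlaps named above, exons of other genes called here overlap an annotated gene. Among them are PLAU, PTGS2, TNFAIP2 and LTBR on the opposite strand, and NFKBIZ and TAB2 on the same strand. What these overlaps did to their counts was not tested. Of 58302 IDs, 57532 were found in GENCODE 44 and 770 were not. SOD2 of the NF-κB list was not matched and was left out.

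Groups came from the labels. Genes with enough counts (filterByExpr, minimum count 10, minimum total 15) were fitted with edgeR 4.0.16 in R 4.3.3 (TMM, quasi-likelihood F test, Benjamini-Hochberg over 5368 genes, threshold 0.05, with a log2 fold change of 1 as a stricter rule). SE is the log2 fold change over the square root of F. Alternatives were other scalings, DESeq2 1.42.0, other filters and thresholds, a replicate block and leaving out each library. Scripts were tested on simulated data. Members and lists were chosen with earlier results of these data known. Named genes were all members, listed genes past the threshold, close paralogs and partners of members, and the 3 genes most like a member past both thresholds; others were named after their values were seen.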

Additional observations from a re-analysis of the deposited data

Results flagged for a closer look

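RELA in siCTRL replicate 2 stood apart from its group, at 15.01 CPM (31 counts), while the other siCTRL libraries lay at 8.85 to 9.73 CPM. Its gap to the nearest of them was 0.858 of the range of the group. Of 22 groups checked, this was the one past the critical value, and chance alone passes about 1 in 20. The log2 fold change of RELA was -0.31 with this library and -0.10 without it (adjusted p = 0.847, edgeR).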

How the results depend on the processing

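No value that passed the test changed sign under any alternative. With library totals alone as scaling, 4 members fell, and 2 genes of the NF-κB list rose and 17 fell (4 and 9 as reported). Over all genes the same scaling gave 340 higher and 1945 lower (856 and 847 as reported). With DESeq2, 0 members fell at the adjusted threshold (RELB at 0.0583; 1 member, RELB, at an unadjusted p under 0.05), 2 listed genes rose, and 541 of all genes fell. Testing all genes with at least 1 count left 0 members past both thresholds in edgeR (BIRC3 still passed the adjusted p), with 943 of all genes past them (498 as reported). At least 10 counts in every library gave 2 members that fell, 0 members and 0 listed genes past both thresholds, and 181 of all genes; fewer genes were tested there, RELB not among them. A log2 fold change of 0.75 as the second threshold gave 2 members, 8 listed genes and 935 of all genes. Leaving out each library in turn gave 1 to 2 members that fell, 2 that rose, and 1 to 2 past both thresholds. The genes behind these counts were not always the same. Without siAPEX1 replicate 1 the member that fell was NFKBIA and not RELB. Without siAPEX1 replicate 3 BIRC3 was at a log2 fold change of 0.99, and RELB (-1.01) was the member past both thresholds. The same held with library totals alone as scaling, where BIRC3 was at 0.69 and RELB at -1.23. The cause of the other moves was not tested. Same-numbered libraries did not deviate together (correlations of -0.037 to -0.0035), so numbers are not taken as pairs; a replicate block gave 2 members that rose and 1 that fell, with 806 higher and 789 lower over all genes. Depth limits the low members: with under 20 counts in every library, NFKB1, TNFAIP3 and ICAM1 could show only large changes.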
